A study of Mus musculus with 12 samples.

Results

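The 10 genes described here encode cleavage factors and poly(A) polymerases of the nucleus: Cpsf1, Cpsf2, Cpsf3, Cpsf4, Cpsf6, Cstf1, Cstf2, Cstf3, Papola and Papolg. They were chosen by gene symbol, and every probe set that the platform annotation gives to 1 of these symbols was taken, which made 28 of the 44937 probe sets of the array and 10 of its 18163 named genes. A probe set is a group of short probes whose brightness is summarised as 1 value per array. Where a gene had several, the one with the highest mean log2 value over the 12 arrays stood for the gene, and the others were described beside it. Of the 28 probe sets, 24 were among the upper 50% of all probe sets by that mean, called the brighter part below. The other 4, a pair for Cpsf2 and 1 each for Cpsf3 and Cstf3, had group means between 1.45 and 14.1.

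Most mRNAs end in a poly(A) tail that is added in the nucleus after the transcript has been cut downstream of the polyadenylation signal. The cleavage and polyadenylation specificity factor (CPSF) reads the signal and makes the cut, the cleavage stimulation factor (CstF) binds the downstream element, cleavage factor I binds upstream of the signal, and poly(A) polymerase extends the new end. Eggs and early embryos store maternal mRNAs with short tails that are lengthened in the cytoplasm, and the embryo makes its own transcripts, which need new 3′ ends, once its genome is activated at the 2-cell stage in the mouse.

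RNA was measured on 12 arrays in 4 groups of 3. Oct4-MO embryos had received an antisense morpholino oligonucleotide (MO) against the pluripotency factor Oct4 by injection into the cytoplasm at the 1-cell stage, and Ccna2-MO embryos had received an MO against cyclin A2, a cell cycle regulator. Each injected group had its own uninjected embryos, taken from the same collection and cultured in parallel. All embryos were wild type, from F1 (C57BL6xDBA/2) females of 3 to 5 weeks that had been superovulated and mated with wild type males, were recovered 17 h after hCG, and were analysed at the mid-2-cell stage. The labels give a dose of 0.6 mM for both MOs, whereas the study's methods give a higher one for Ccna2-MO. Each array held RNA of a pool of 20 embryos, and an amount equal to 10 embryos went into the amplification. An MO blocks translation and need not lower its target mRNA, so the level of the target does not check the labels. Pou5f1, which encodes Oct4, had a value of 2193 in Oct4-MO and 1923 in uninjected embryos, and Ccna2 had 3595 in Ccna2-MO and 3871 in uninjected embryos. Neither difference passed the test. The uninjected embryos had received no injection, so in each comparison the injection and the MO cannot be told apart. The labels do not describe the pools of a group as separate experiments beyond their replicate numbers, whereas the study's supplement lists 3 experiments for each MO. The p-values measure the spread between these pools.

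The arrays had median values of 22.7 to 25.5, and 39.3 to 42.7% of their probe sets were under 16. All 8 markers of the egg and early embryo were present, with summed levels of 15165 to 17306 in Oct4-MO, 15982 to 16605 in the uninjected embryos of that experiment, 16871 to 19363 in Ccna2-MO and 17487 to 18447 in the uninjected embryos of that one. Of 5 markers of the 2-cell stage 4 were measured, with sums of 8498 to 10608 in Oct4-MO against 10425 to 11335 in uninjected embryos, and 10620 to 11882 in Ccna2-MO against 9983 to 12483 in uninjected embryos. Among these, Trim43a was called lower in Oct4-MO embryos, at 1650 against 3555 in uninjected embryos (log2 fold change -1.12, adjusted p = 0.022 from limma). The other measured markers of that stage, Zfp352, Tcstv1 and Tcstv3, had log2 fold changes of 0.07, 0.28 and 0.07 there. In Ccna2-MO embryos Trim43a was lower without overlap as well (-0.38, adjusted p = 0.244), and did not pass. Zfp352 was higher without overlap in Ccna2-MO embryos (0.48, adjusted p = 0.127), while Tcstv1 (0.22) and Tcstv3 (-0.25) overlapped. Among the egg markers Zar1 was called higher in Ccna2-MO embryos (2.19, adjusted p = 0.033). Zar1 averaged 303 in Oct4-MO and 73.6 in uninjected embryos as well, without overlap, and did not pass there (1.85, adjusted p = 0.123). The 9 markers of cumulus cells, which had been removed from the embryos by enzyme, summed to 597 to 856 in Oct4-MO against 629 to 690 in uninjected embryos, and to 598 to 1388 in Ccna2-MO against 650 to 1127 in uninjected embryos. Of these 9, 4 to 6 had means under 16 in a group and 0 were called. In each knockdown 4 of the 9 lay below 0 and 5 above. Cyp11a1, a steroid-making enzyme, was higher without overlap in both experiments. In the Oct4-MO experiment 8.24% of all probe sets were, and in the Ccna2-MO experiment 8.64%. It had 331 in Oct4-MO and 131 in uninjected embryos (1.24, adjusted p = 0.505 from limma). It had 216 in Ccna2-MO and 82.0 in uninjected embryos (1.65, adjusted p = 0.178). Amhr2 ran the other way, with overlap in both and log2 fold changes of -0.53 and -0.52. The ratio of the 3′ to the 5′ probe set of Gapdh, a sign of RNA quality, ranged from 2.80 to 5.94 in Oct4-MO against 2.97 to 3.84 in uninjected embryos, and from 2.36 to 3.59 in Ccna2-MO against 3.06 to 3.33 in uninjected embryos. The same ratio for Actb was lower than that of Gapdh on every array. It was 0.308 to 0.824 in Oct4-MO against 0.448 to 0.803 in uninjected embryos. In Ccna2-MO it was 0.442 to 0.578, against 0.544 to 0.733 in uninjected embryos. The part of these markers and of RNA quality in the results below was not tested.

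The first question was whether the machinery differed in Oct4-MO embryos from the uninjected embryos cultured with them. On their brightest probe sets 9 of the 10 genes had lower means in Oct4-MO embryos on the log2 scale, Cstf2 being the exception, but none passed the test at an adjusted p under 0.05 (limma with Benjamini-Hochberg adjustment over all probe sets). Among all genes 48.5% lay below 0 in this comparison. The median log2 fold change of the 10 genes was -0.39, against 0.01 over all genes and -0.02 over the genes in the brighter part of the array. Over the 28 probe sets it was -0.43, with 25 below 0, against 48.7% of all probe sets. In pooled embryos, less RNA of a gene in every embryo and a smaller share of embryos that hold it cannot be told apart.

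Of the 28 probe sets, 0 were called lower (0.0445% of all probe sets were) and 0 higher (0.0289%). The smallest adjusted p among them was 0.0611, for a probe set of Cpsf6. At an unadjusted p under 0.05, 6 of the 28 were lower, against 5.09% of all probe sets and 8.49% of those in the brighter part, where all 6 lay, and 0 were higher, against 4.17%. In 7 of the 28 every Oct4-MO array was below every uninjected array, against 8.40% of all probe sets and 12.3% of those in the brighter part. By the brightest probe sets these were 3 of the 10 genes, Cpsf2, Cpsf4 and Papolg, against 9.57% of all genes. In 0 of the 28 was every Oct4-MO array above, against 8.24% of all probe sets.

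In Ccna2-MO embryos 8 of the 10 genes had lower means than in their uninjected embryos, Cstf2 and Papolg being the exceptions, and again none passed. The median log2 fold change was -0.65, against 0.03 over all genes and 0.02 over those in the brighter part, and 46.8% of all genes lay below 0. Over the 28 probe sets the median was -0.10, with 16 below 0, against 46.7% of all probe sets. Of the 28, 0 were called lower (0.409% of all probe sets were) and 0 higher (0.338%), and the smallest adjusted p was 0.107, for Cpsf4. At an unadjusted p under 0.05, 8 were lower, against 7.16% of all probe sets and 11.4% of those in the brighter part, where all 8 lay, and 0 were higher, against 6.89%. In 6 of the 28 every Ccna2-MO array was below every uninjected array, against 8.27% of all probe sets and 2689 of the 22468 in the brighter part. By the brightest probe sets these were 3 of the 10 genes, Cpsf2, Cpsf4 and Cstf1, against 9.29% of all genes. In 1 of the 28, a probe set of Cstf2, every Ccna2-MO array was above, against 8.64%.

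**Figure D1:**
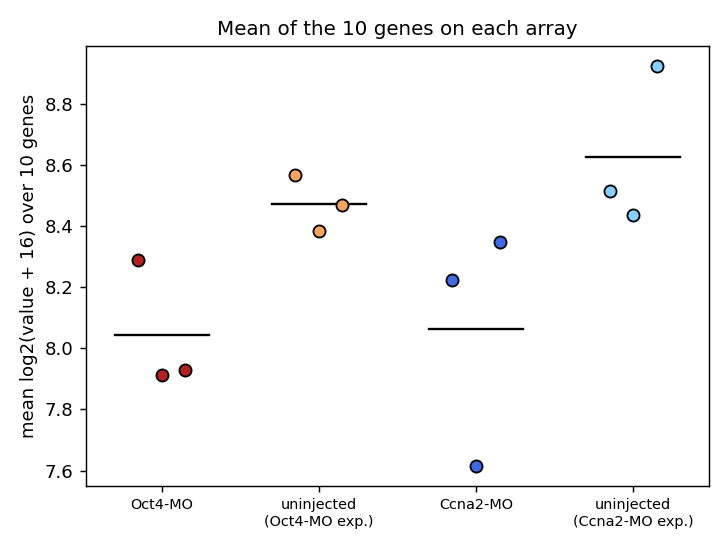
Mean log2(value + 16) of the brightest probe sets of the 10 genes on each array, with a line at the mean of the 3 arrays of each group. The Oct4-MO arrays sit at 7.91 to 8.29 and their uninjected arrays at 8.38 to 8.57, and the Ccna2-MO arrays at 7.62 to 8.35 and their uninjected arrays at 8.44 to 8.92.

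The mean log2 value of the 10 genes was 8.29, 7.91 and 7.93 on the Oct4-MO arrays, against 8.57, 8.38 and 8.47 on their uninjected arrays. It was 8.22, 7.62 and 8.35 on the Ccna2-MO arrays, against 8.51, 8.44 and 8.92 on their uninjected arrays. By this mean the groups did not overlap in either experiment. By the median of the 10 genes, Oct4-MO arrays lay at 8.16 to 8.22 and their uninjected arrays at 8.36 to 8.70. The Ccna2-MO arrays, at 7.79 to 8.59, then overlapped their uninjected arrays, at 8.21 to 9.40. Ccna2-MO replicate 2 was the lowest of the 12 arrays, and the third uninjected array of that experiment was the highest. Cpsf3 was high on both arrays of the third Ccna2-MO pair, as described below.

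Among the CPSF subunits, Cpsf4 is a zinc finger protein that takes part in binding the polyadenylation signal. Its single probe set, 1424469_a_at, had values of 438, 465 and 260 in Oct4-MO embryos, against 802, 553 and 758 in uninjected embryos. It had 598, 401 and 397 in Ccna2-MO embryos, against 924, 849 and 913 in uninjected embryos. In both experiments all 3 injected pools were below all 3 uninjected pools. The mean was 387 ± 111 in Oct4-MO and 704 ± 133 in uninjected embryos (SD, n = 3 each), a ratio of 0.550 and a log2 fold change of -0.86 (95% interval -1.41 to -0.32, adjusted p = 0.264 from limma). In Ccna2-MO embryos it was 466 ± 115, against 895 ± 40.3 in uninjected embryos (SD, n = 3 each), a ratio of 0.520 and a log2 fold change of -0.94 (-1.49 to -0.40, adjusted p = 0.107). The changes in the 2 knockdowns differed by 0.08 on the log2 scale, with an interval of -0.69 to 0.86.

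Cpsf1, the large scaffold subunit of CPSF, also has 1 probe set, 1417665_a_at. It had 122, 47.4 and 94.1 in Oct4-MO embryos, against 214, 163 and 71.2 in uninjected embryos. In Ccna2-MO embryos it had 120, 24.7 and 19.8, against 153, 115 and 161 in uninjected embryos. The groups overlapped in both experiments, with the first Ccna2-MO pool inside the range of its uninjected pools and the other pools well below it. The log2 fold change was -0.63 (-1.75 to 0.49) in Oct4-MO and -1.44 (-2.56 to -0.32) in Ccna2-MO embryos, with adjusted p of 0.804 and 0.226 from limma. The change in Ccna2-MO embryos was the most negative of the 10 genes in that experiment.

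Cpsf2 is a partner of Cpsf3 that resembles it but lacks its catalytic activity. Its brightest probe set, 1420937_at, had 397, 298 and 310 in Oct4-MO embryos, against 397, 434 and 564 in uninjected embryos, and 294, 273 and 345 in Ccna2-MO embryos, against 603, 383 and 478 in uninjected embryos. No array overlapped in either experiment, although the highest Oct4-MO array and the lowest uninjected array differed by less than 1 unit. The log2 fold changes were -0.45 (-0.96 to 0.05, adjusted p = 0.605) and -0.64 (-1.14 to -0.13, adjusted p = 0.234). The other probe sets of Cpsf2 were under 16 in the mean of every group, so they carry no order.

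Cpsf3 is the endonuclease that cuts the transcript. Its brightest probe set, 1437852_x_at, is of a type that may cross-hybridise with other transcripts. It had 184, 275 and 290 in Oct4-MO embryos, against 402, 224 and 169 in uninjected embryos, a full overlap. In the other experiment it had 265, 118 and 999 in Ccna2-MO embryos, against 188, 130 and 1552 in uninjected embryos. The high values were both in the third pair, the injected and the uninjected pool alike, and the other 4 arrays of that experiment lay between 118 and 265. The log2 fold changes were -0.02 (-1.82 to 1.77) and -0.10 (-1.89 to 1.70), the widest intervals of any member, and the sign of either depended on single arrays. A second probe set, 1422855_at, had 185, 13.9 and 145 in Ccna2-MO embryos, against 89.2, 60.3 and 132 in uninjected embryos, without such a step in the third pair.

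Cpsf6 is the larger subunit of cleavage factor I, which binds upstream of the signal together with Nudt21. Its brightest probe set, 1428232_at, had 980, 798 and 754 in Oct4-MO embryos, against 1240, 927 and 1457 in uninjected embryos, and 1039, 503 and 1253 in Ccna2-MO embryos, against 977, 1494 and 1818 in uninjected embryos. The groups overlapped in both, and the log2 fold changes were -0.49 (-1.18 to 0.19, adjusted p = 0.708) and -0.66 (-1.35 to 0.02, adjusted p = 0.376). Without Ccna2-MO replicate 2 the Ccna2-MO value was -0.28. All 6 of its probe sets lay below 0 in Oct4-MO embryos, and 5 of 6 did in Ccna2-MO embryos. With all 6 uninjected arrays as controls 1 of them, 1428231_at, turned to 0.018 in Oct4-MO embryos.

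Probe set 1437372_at of Cpsf6 had the smallest p of all members in Oct4-MO embryos. It had 17.6, 44.7 and 34.1 in Oct4-MO embryos, against 174, 133 and 221 in uninjected embryos, which left a gap of more than 80 units between the groups. Its Oct4-MO values were dim, on arrays whose median values were 23.7 to 25.5. In Ccna2-MO embryos it had 63.9, 94.9 and 129, against 128, 193 and 130, with the highest injected pool among the uninjected ones. The log2 fold change was -2.01 in Oct4-MO (-2.73 to -1.29, adjusted p = 0.0611) and -0.59 in Ccna2-MO embryos (-1.31 to 0.13, adjusted p = 0.465), and the test of the difference between them did not pass (-1.42, -2.44 to -0.41, adjusted p = 0.645). This probe set passed in Oct4-MO embryos when only the brighter part of the array was tested (adjusted p = 0.033) or when all 6 uninjected arrays served as controls (0.00977), and also without the first (0.0472) or the second (0.0465) Ccna2-MO array, which enter through the shared spread. The other 5 probe sets of the gene had log2 fold changes of -0.86 to -0.43 in Oct4-MO embryos, and all 5 overlapped between the groups.

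In Ccna2-MO embryos another probe set of Cpsf6 stood lowest. 1439188_at had 83.2, 97.5 and 49.4 in Ccna2-MO embryos, against 291, 197 and 154 in uninjected embryos, with no overlap and a log2 fold change of -1.30 (-2.10 to -0.51, adjusted p = 0.124). In Oct4-MO embryos it had 136, 184 and 76.8, against 209, 136 and 249, with overlap and a log2 fold change of -0.56 (-1.36 to 0.24, adjusted p = 0.719).

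**Figure D2:**
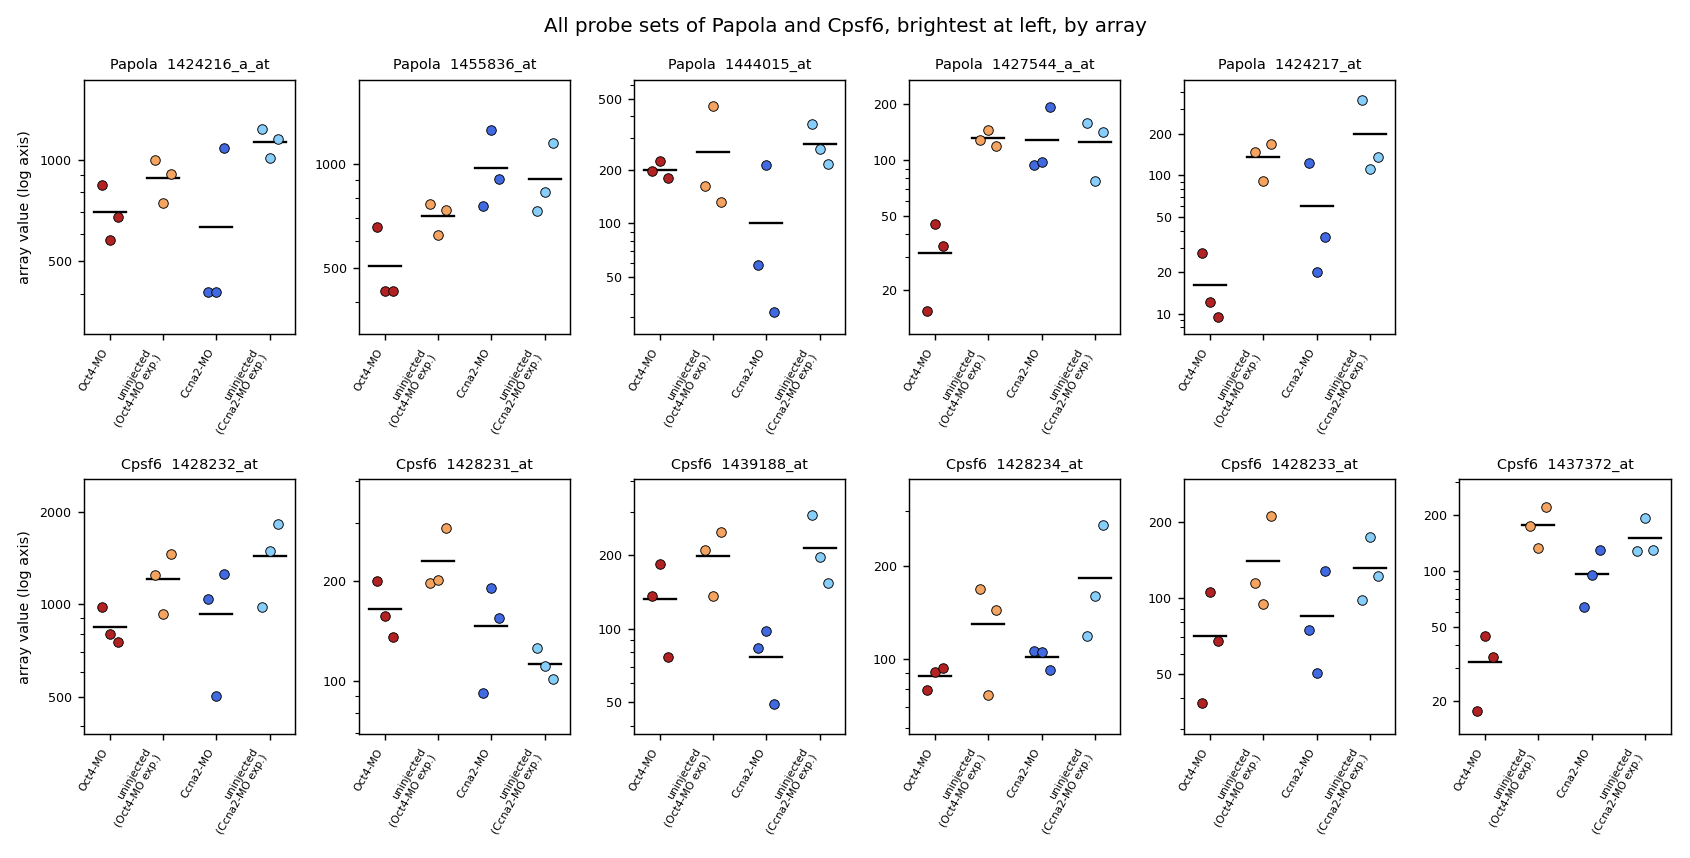
Values of every probe set of Papola (upper row, 5) and Cpsf6 (lower row, 6) on each array, on log axes of their own, with a line at the group mean. The 3 Oct4-MO arrays lie below all 3 uninjected arrays in Papola 1427544_a_at and 1424217_at and in Cpsf6 1437372_at, and overlap them in the other 8 probe sets.

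CstF has a subunit that binds RNA, encoded by Cstf2, a scaffold, encoded by Cstf3, and a WD40-repeat protein, encoded by Cstf1. Cstf1, by probe set 1448597_at, had 497, 290 and 485 in Oct4-MO embryos, against 457, 558 and 506 in uninjected embryos. It had 398, 209 and 399 in Ccna2-MO embryos, against 585, 515 and 930 in uninjected embryos. The groups overlapped in the Oct4-MO experiment and did not in the Ccna2-MO experiment, where all 3 injected pools were lower. The log2 fold change was -0.28 (-0.95 to 0.39, adjusted p = 0.873) in Oct4-MO and -0.99 (-1.66 to -0.32, adjusted p = 0.162) in Ccna2-MO embryos. They differed by 0.71 (-0.24 to 1.65, adjusted p = 0.802). Without Oct4-MO replicate 2 the Oct4-MO value was -0.041. Its second probe set, 1417117_at, ranged from 3.96 to 93.2 over the arrays of the Oct4-MO experiment, where the second pair was high in both pools.

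Cstf2 had the higher means in injected embryos on its brightest probe set, 1419645_at. It had 180, 244 and 255 in Oct4-MO embryos, against 169, 179 and 211 in uninjected embryos. In Ccna2-MO embryos it had 186, 202 and 198, against 160, 185 and 163, so that every injected pool was above every uninjected pool by a small margin. The log2 fold changes were 0.25 (-0.24 to 0.75, adjusted p = 0.824) and 0.19 (-0.30 to 0.69, adjusted p = 0.77). Probe set 1419644_at of the same gene had 10.4, 20.6 and 15.1 in Oct4-MO embryos, against 66.3, 82.6 and 28.8 in uninjected embryos. There every Oct4-MO array was lower, in the opposite direction to the brightest probe set, with a log2 fold change of -1.20 (-2.18 to -0.22, adjusted p = 0.425). In Ccna2-MO embryos it overlapped, at 172, 34.4 and 48.6 against 58.5, 77.0 and 55.5, a log2 fold change of 0.10 (-0.88 to 1.08).

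For Cstf3 the brightest probe set, 1424723_s_at, is of a type that can be shared with other transcripts. It had 127, 34.9 and 38.6 in Oct4-MO embryos, against 51.2, 74.3 and 105 in uninjected embryos, and 71.6, 42.4 and 93.6 in Ccna2-MO embryos, against 99.0, 87.8 and 109 in uninjected embryos. The groups overlapped in both, and the log2 fold changes were -0.30 (-1.18 to 0.59, adjusted p = 0.91) and -0.47 (-1.36 to 0.41, adjusted p = 0.663). Leaving out single arrays moved them between -0.77 (without Oct4-MO replicate 1) and -0.031 (without Oct4-MO replicate 2), and between -0.68 (without Ccna2-MO replicate 3) and -0.22 (without Ccna2-MO replicate 2).

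**Figure D3:**
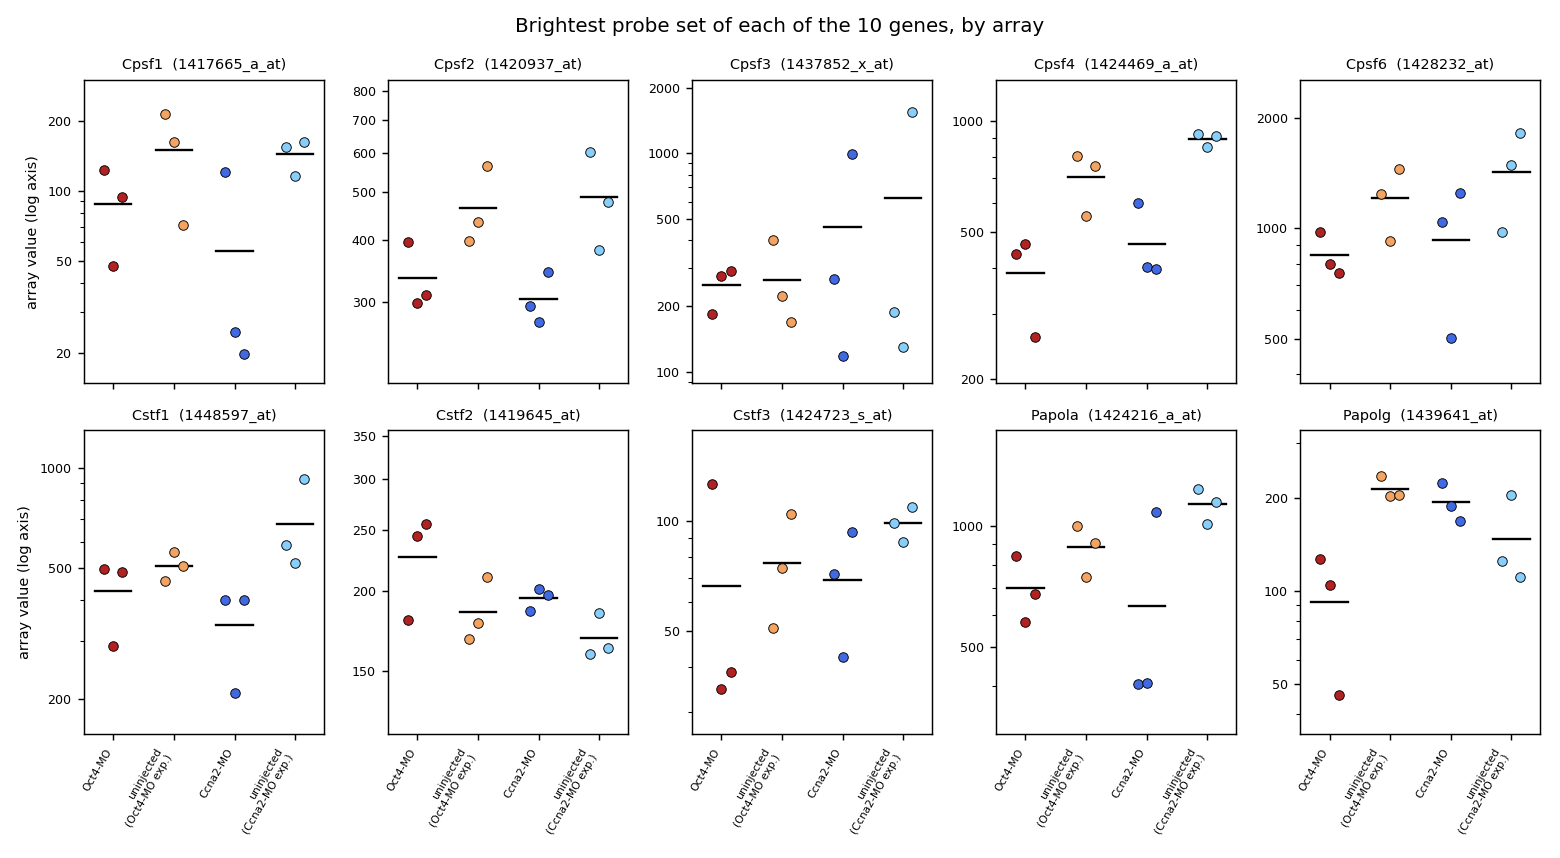
Value of the brightest probe set of each of the 10 genes on each of the 12 arrays, 1 panel a gene with its own log axis, and a line at the mean of each group. Cpsf2 and Cpsf4 are lower in all 3 injected pools than in all 3 uninjected pools of both experiments, Papolg in the Oct4-MO experiment alone and Cstf1 in the Ccna2-MO experiment alone.

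Papola encodes the main poly(A) polymerase of the nucleus, and its 5 probe sets gave unlike values. The brightest, 1424216_a_at, had 840, 577 and 678 in Oct4-MO embryos, against 998, 745 and 905 in uninjected embryos. It had 404, 405 and 1082 in Ccna2-MO embryos, against 1231, 1011 and 1147 in uninjected embryos. Each injected pool was below its own uninjected pool in 6 of 6 pairs, a pattern whose share among all probe sets was not counted. The groups overlapped in both experiments, in the Ccna2-MO experiment through the third pool alone. The log2 fold change was -0.34 (-1.02 to 0.35, adjusted p = 0.835) in Oct4-MO embryos and -0.98 (-1.66 to -0.29, adjusted p = 0.175) in Ccna2-MO embryos. Without the third Ccna2-MO array the Ccna2-MO comparison gave -1.44 and passed (adjusted p = 0.015).

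Probe sets 1427544_a_at and 1424217_at of Papola stood lowest in Oct4-MO embryos. The first had 15.3, 45.5 and 34.3 in Oct4-MO embryos, against 129, 145 and 119 in uninjected embryos, a log2 fold change of -1.68 (-2.46 to -0.89, adjusted p = 0.126). The second had 27.4, 12.1 and 9.50 in Oct4-MO embryos, against 148, 91.7 and 167 in uninjected embryos, a log2 fold change of -2.23 (-3.35 to -1.12, adjusted p = 0.144). In both the highest Oct4-MO array was well under the lowest uninjected array. The Oct4-MO values of both were dim, on arrays whose median values were 23.7 to 25.5. Neither probe set passed. With all 6 uninjected arrays as controls both did (adjusted p = 0.0279 and 0.0237), where differences between the experiments enter the comparison.

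In Ccna2-MO embryos the first had 94.4, 97.5 and 194 in Ccna2-MO embryos, against 158, 76.9 and 141 in uninjected embryos, a log2 fold change of 0.02 (-0.77 to 0.80). The second had 124, 20.1 and 36.0 in Ccna2-MO embryos, against 349, 112 and 135, a log2 fold change of -1.58 (-2.70 to -0.47, adjusted p = 0.178), with the first injected pool above the lowest uninjected pool. For 1427544_a_at the Oct4-MO change differed from the Ccna2-MO change by -1.69 (-2.81 to -0.58, adjusted p = 0.636), which did not pass.

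The remaining pair of Papola probe sets were 1455836_at and 1444015_at. The first, 1455836_at, had 660, 431 and 430 in Oct4-MO embryos, against 768, 623 and 737 in uninjected embryos, and 757, 1253 and 906 in Ccna2-MO embryos, against 734, 833 and 1153 in uninjected embryos. The groups overlapped in both, with log2 fold changes of -0.50 (-1.02 to 0.03, adjusted p = 0.577) and 0.09 (-0.43 to 0.62, adjusted p = 0.913). 1444015_at had 198, 223 and 180 in Oct4-MO embryos, against 162, 456 and 132 in uninjected embryos, and 58.4, 213 and 31.8 in Ccna2-MO embryos, against 360, 260 and 215 in uninjected embryos. It overlapped in the Oct4-MO experiment (-0.10, -1.27 to 1.07), and in the Ccna2-MO experiment the highest injected pool lay just under the lowest uninjected pool (-1.63, -2.79 to -0.46, adjusted p = 0.186). The Oct4-MO change differed from the Ccna2-MO change by -0.59 (-1.34 to 0.16, adjusted p = 0.794) for 1455836_at and by 1.52 (-0.13 to 3.17, adjusted p = 0.767) for 1444015_at, and neither passed.

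Papolg encodes another nuclear poly(A) polymerase. Its brightest probe set, 1439641_at, had 127, 104 and 46.0 in Oct4-MO embryos, against 235, 203 and 204 in uninjected embryos, and 223, 188 and 169 in Ccna2-MO embryos, against 125, 204 and 111 in uninjected embryos. All 3 Oct4-MO pools were below all uninjected pools, whereas the Ccna2-MO pools overlapped theirs with a higher mean. The mean was 92.3 ± 41.6 in Oct4-MO and 214 ± 18.5 in uninjected embryos, and 193 ± 27.4 in Ccna2-MO and 147 ± 50.4 in uninjected embryos (SD, n = 3 each). The log2 fold change was -1.17 in Oct4-MO (-1.89 to -0.44, adjusted p = 0.252), the most negative of the 10 genes there, and 0.39 in Ccna2-MO embryos (-0.33 to 1.12, adjusted p = 0.655).

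The second probe set of Papolg, 1427241_at, had 15.4, 20.2 and 28.2 in Oct4-MO embryos, against 59.6, 24.0 and 56.1 in uninjected embryos, and 161, 46.8 and 70.3 in Ccna2-MO embryos, against 55.1, 35.6 and 47.4 in uninjected embryos. It was lower in 3 of 3 Oct4-MO pairs and higher in 3 of 3 Ccna2-MO pairs, but the groups overlapped in both experiments. The share of all probe sets with such pairs was not counted. The log2 fold changes were -0.71 (-1.55 to 0.14, adjusted p = 0.637) and 0.68 (-0.17 to 1.52, adjusted p = 0.472).

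**Figure D4:**
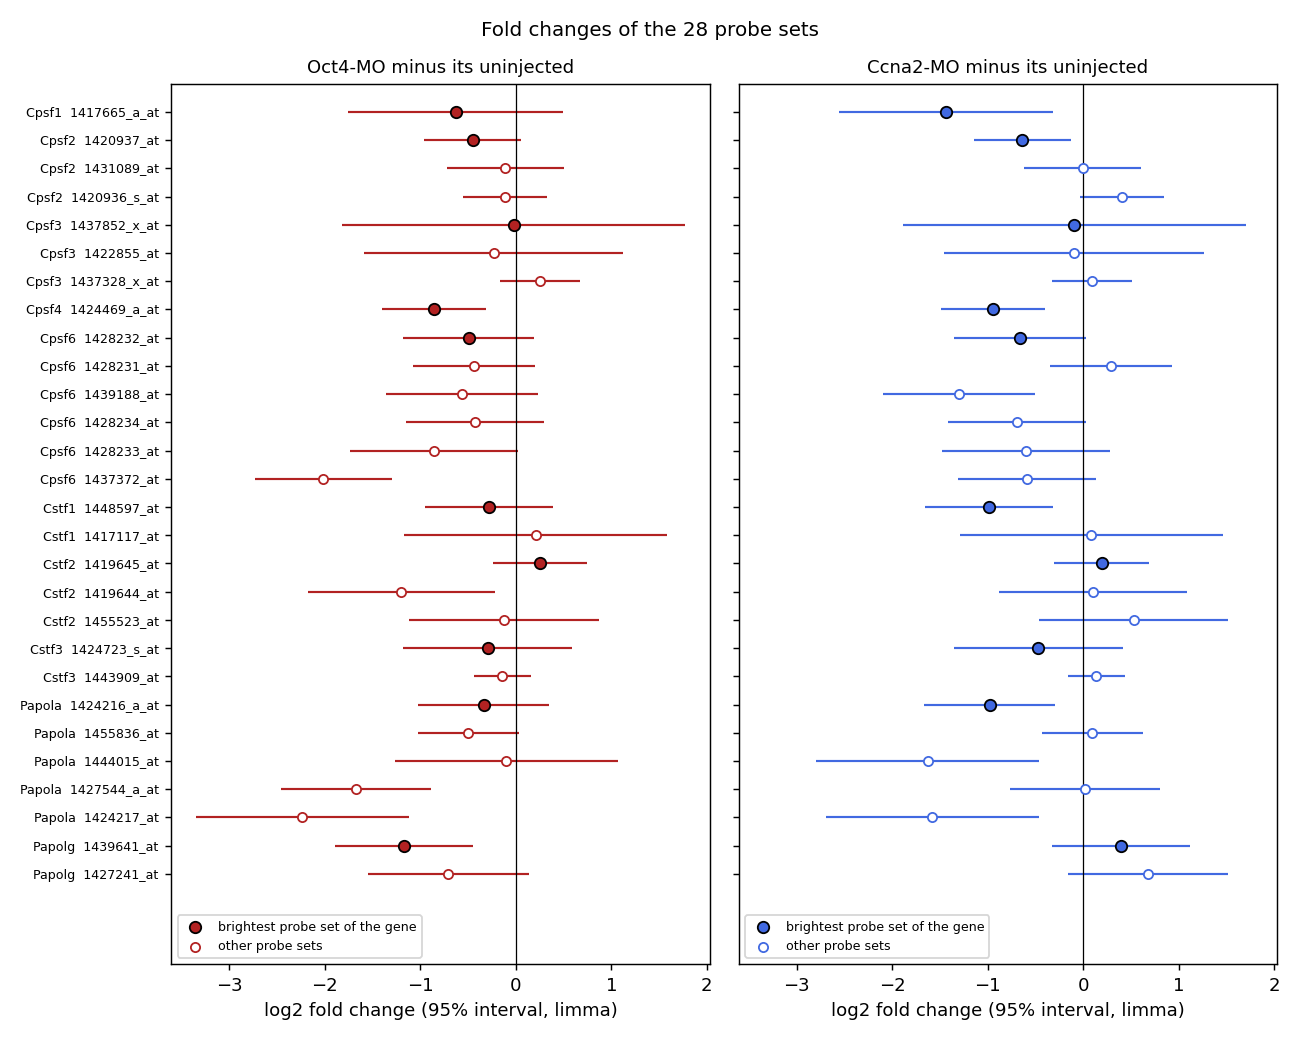
Log2 fold change of each of the 28 probe sets in Oct4-MO (left) and Ccna2-MO embryos (right) over their own uninjected embryos, with 95% intervals from limma and filled points for the brightest probe set of each gene. In Oct4-MO embryos 25 of the 28 points lie below 0, and in Ccna2-MO embryos 16 do.

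A direct test of whether the knockdowns differed asked for the Oct4-MO change minus the Ccna2-MO change. It called 0 of the 28 probe sets lower (0% of all probe sets were) and 0 higher (0.00223%, which is 1 probe set). The smallest adjusted p was 0.636. At an unadjusted p under 0.05, 4 of the 28 had a more negative change in Oct4-MO embryos, against 3.64% of all probe sets, and none a more positive one (3.01%). These were both probe sets of Papolg, at -1.56 (-2.59 to -0.54) and -1.39 (-2.57 to -0.20), with Papola 1427544_a_at and Cpsf6 1437372_at. By their brightest probe sets 9 of the 10 genes had a difference above 0, against 48.5% of all genes, with a median of 0.17 on the log2 scale. Over all 28 probe sets 14 did, and the median of the 10 genes was -0.098 when all probe sets of a gene were averaged.

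The uninjected embryos of the Oct4-MO experiment were set against those of the Ccna2-MO experiment to describe how far the members varied between collections. By limma 0 of the 28 probe sets were called lower (0.0623% of all were) and 0 higher (0.0289%). At an unadjusted p under 0.05, 2 were higher and 0 lower, against 5.57% and 5.95% of all probe sets. The median log2 difference of the 10 genes was -0.28, with 8 of 10 below 0, against 47.9% of all genes. The groups did not overlap in 3 of the 28 probe sets that were lower, against 10.3% of all, and in 2 that were higher, against 10.9%. Cpsf4 had 802, 553 and 758 in the uninjected embryos of the Oct4-MO experiment, against 924, 849 and 913 in those of the Ccna2-MO experiment, without overlap. Cpsf6 1428231_at was higher, at 197, 202 and 289 against 126, 111 and 102, also without overlap, a log2 difference of 0.91 (0.28 to 1.55, adjusted p = 0.258).

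Other genes of 3′ end formation were read by lists, on their brightest probe sets, and none passed in any comparison. Of 15 other cleavage and polyadenylation factors, 8 lay below 0 in Oct4-MO embryos, with a median of -0.07, against 48.5% of all genes. In Ccna2-MO embryos 9 did, with a median of -0.03, against 46.8% of all genes. Nudt21, which forms cleavage factor I with Cpsf6, had 482, 350 and 332 in Oct4-MO embryos, against 591, 541 and 565 in uninjected embryos, and 507, 225 and 406 in Ccna2-MO embryos, against 507, 739 and 607 in uninjected embryos. It had no overlap in either experiment, by under 1 unit in the Ccna2-MO experiment, and log2 fold changes of -0.54 (adjusted p = 0.598) and -0.74 (adjusted p = 0.25). The means of Cpsf6 on its brightest probe set were lower in both as well.

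Wdr33, the CPSF subunit that reads the signal together with Cpsf4, had the smallest p of that list in Oct4-MO embryos. It had 442, 432 and 562 in Oct4-MO embryos, against 685, 582 and 711 in uninjected embryos, without overlap (-0.45, -0.82 to -0.09, adjusted p = 0.417). Its log2 fold change in Ccna2-MO embryos was 0.05, with overlap. Ssu72, a phosphatase that acts on RNA polymerase II, averaged 1852 in Oct4-MO and 1568 in uninjected embryos, with overlap (0.24, adjusted p = 0.595). It was higher in Ccna2-MO embryos as well, without overlap (0.26, adjusted p = 0.383). Cpsf4l, a relative of Cpsf4, averaged 197 ± 123 in Ccna2-MO and 52.8 ± 25.2 in uninjected embryos (SD, n = 3 each), with overlap (1.49, 0.34 to 2.63, adjusted p = 0.221). Its mean was higher in Oct4-MO embryos as well, with overlap (0.85, adjusted p = 0.698).

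Histone mRNAs of the cell cycle carry no poly(A) tail, and a list of factors that serve the formation of their 3′ ends was read. All 5 listed factors lay above 0 in Oct4-MO embryos, with a median of 0.17, against 51.5% of all genes. Slbp, Zfp473 and Casp8ap2 were at 0.15, 0.17 and 0.07. In Ccna2-MO embryos 2 of 5 lay above 0, with a median of -0.05, against 53.2% of all genes. Lsm10, a subunit of the U7 particle, had 106, 125 and 86.2 in Oct4-MO embryos, against 35.4, 59.6 and 61.4 in uninjected embryos, without overlap (0.85, adjusted p = 0.533). The uninjected embryos of the Ccna2-MO experiment had 142, 161 and 156, all above the Oct4-MO embryos. Its partner Lsm11 averaged 55.8 in Oct4-MO and 22.0 in uninjected embryos (0.83, adjusted p = 0.651), and had a log2 fold change of -0.05 in Ccna2-MO embryos. In Ccna2-MO embryos the log2 fold changes of Lsm10 and of Slbp, which binds the histone stem-loop, were -0.20 and 0.07 (adjusted p = 0.874 and 0.878).

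The third list holds 12 genes of cytoplasmic polyadenylation and poly(A) binding. In Oct4-MO embryos 9 of them lay below 0, with a median of -0.25, against 48.5% of all genes. In Ccna2-MO embryos 5 did, with a median of 0.09, against 46.8% of all genes. Pabpc1, a cytoplasmic poly(A)-binding protein, had 1068, 748 and 816 in Oct4-MO embryos, against 1482, 1079 and 1272 in uninjected embryos, and 1261, 723 and 1298 in Ccna2-MO embryos, against 1877, 1398 and 2497 in uninjected embryos. It did not overlap in either experiment, with log2 fold changes of -0.54 (adjusted p = 0.561) and -0.81 (adjusted p = 0.168). Cpeb1, which binds the cytoplasmic polyadenylation element in stored mRNAs, averaged 132 in Oct4-MO and 223 in uninjected embryos (-0.70, adjusted p = 0.569). It ran the other way in the Ccna2-MO experiment, at 211 in Ccna2-MO and 118 in uninjected embryos, with overlap (0.66, adjusted p = 0.42). Tent2, a cytoplasmic poly(A) polymerase, had 503, 715 and 771 in Ccna2-MO embryos, against 354, 466 and 478 in uninjected embryos, without overlap (0.59, 0.12 to 1.06, adjusted p = 0.238). Its log2 fold change in Oct4-MO embryos was -0.09, with overlap.

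Oct4 binds an octamer in DNA, and the start of each member was searched for it. The letters ATGCAAAT, on either strand, were in 0 of 10 windows of 9 member genes, and in 570 of 32851 windows of all genes (1.74%). The windows run from 250 bases before to 50 bases after each start in RefSeq annotation of GRCm38.p6, and Cpsf1 had none. At that frequency 0 of 10 says only that these letters are not in these windows.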

How the data were processed

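The authors normalized 12 Affymetrix Mouse Genome 430 2.0 arrays with dChip and deposited 1 intensity per probe set on a linear scale, in 1 column per sample; its version and options are not given in these sources. The arrays came from pools of embryos from 3 to 6 females. The table holds 45001 probe sets, of which 64 controls were left out. By the platform annotation 34849 probe sets had 1 symbol, 928 several and 9160 none, and all 10 member symbols matched RefSeq by gene ID. Cytoplasmic genes listed under old and new symbols were counted once.

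Values were analysed as log2(value + 16), so fold changes of dim probe sets are understated. R 4.3.3 and limma 3.58.1 fitted 4 group means over all 12 arrays with an intensity trend, and p-values were adjusted by Benjamini-Hochberg over 44937 probe sets and called under 0.05. The number of arrays limits the precision. The steps were tested on simulated arrays.

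The members and gene lists were chosen with earlier results of these data known. The named genes are all members with all their probe sets and, in each knockdown comparison, the 2 genes of each other list with the smallest p, none having passed. The 12 labels pair each uninjected pool with the injected pool of its number, from the same collection. After subtraction of the group means, paired arrays correlated at 0.083, 0.0308 and 0.00911 for Oct4-MO and at -0.0128, 0.0841 and 0.114 for Ccna2-MO, and over the 28 member probe sets at 0.254, 0.352 and -0.00267 and at 0.175, 0.444 and 0.565. Alternatives were the pair as a block, other numbers added, normalizations and controls, fewer arrays or probe sets, no trend, an unpaired t-test for each probe set and leaving out each array. That t-test is not the study's own ranking, which joined a t-statistic with fold changes and a permutation-based false discovery rate and was not run here.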

Additional observations from a re-analysis of the deposited data

Results flagged for a closer look

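The second probe set of Papolg, 1427241_at, was picked out because its change ran opposite ways in the knockdowns. It was lower in all 3 Oct4-MO pools than in their paired uninjected pools and higher in all 3 Ccna2-MO pools than in theirs. The groups overlapped in both experiments, and the share of all probe sets with such pairs was not counted. Its Oct4-MO values of 15.4, 20.2 and 28.2 were dim, on arrays whose median values were 23.7 to 25.5. The Oct4-MO change minus the Ccna2-MO change was -1.39 on the log2 scale, with a 95% interval of -2.57 to -0.20, and this difference did not pass (adjusted p = 0.711, limma with Benjamini-Hochberg adjustment).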

How the results depend on the processing

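With the pair as a replicate block, 0 of the 28 member probe sets passed in Oct4-MO embryos, 0 in Ccna2-MO embryos and 0 in the difference, so the block changed no call. An unpaired test for each probe set, with no spread shared between probe sets, also called 0 of the 28, and 0 of all probe sets, in both knockdowns and between the uninjected groups. In Oct4-MO embryos 1 member passed among the brighter probe sets alone, where fewer are tested (Cpsf6 1437372_at, adjusted p = 0.033). With all 6 uninjected arrays as controls 4 passed, the 3 probe sets given above and Cpsf4 (0.0499). Those controls include the uninjected arrays of the Ccna2-MO experiment, so differences between the experiments enter this comparison. The log2 fold change went from -0.86 to -1.04 for Cpsf4 and from -2.23 to -2.42 for Papola 1424217_at. It went from -2.01 to -1.91 for Cpsf6 1437372_at and from -1.68 to -1.62 for Papola 1427544_a_at. Leaving out each array in turn gave 0 to 1 in Oct4-MO embryos (Cpsf6 1437372_at, 0.0472 without Ccna2-MO replicate 1 and 0.0465 without Ccna2-MO replicate 2) and 0 to 1 in Ccna2-MO embryos (Papola 1424216_a_at, without Ccna2-MO replicate 3). The smallest adjusted p of a member ranged from 0.00977 to 0.325 and from 0.015 to 0.398 over the alternatives. The median of the 10 genes stayed below 0 in all 23 alternatives, at -0.59 to -0.26 in Oct4-MO and -0.87 to -0.31 in Ccna2-MO embryos. The count of all probe sets called, 33 and 336, ranged from 0 to 452 and from 0 to 711.

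Signs turned for Cpsf3 in Oct4-MO embryos under quantile normalization (0.025) and median centring (0.034), and for Cpsf2 between the uninjected groups under quantile normalization (0.014). With all 6 uninjected arrays as controls they turned in Oct4-MO embryos for Cpsf6 1428231_at (0.018) and Cstf3 1443909_at (0.030), and in Ccna2-MO embryos for Cpsf3 (0.13), Cpsf6 1428231_at (-0.17), Cstf3 1443909_at (-0.034), Papola 1427544_a_at (-0.035), Lsm10 (0.46) and Lsm11 (0.12, and 0.031 with 64 added). Without single arrays the sign turned in Oct4-MO embryos for Cpsf3 (-0.28 to 0.31), Papola 1444015_at (-0.43 to 0.41) and Cstf3 1443909_at (-0.24 to 0.037). In Ccna2-MO embryos it turned for Cpsf3 (-0.89 to 0.97), Cstf2 1419644_at (-0.47 to 0.48), Papola 1427544_a_at (-0.29 to 0.19), Lsm10 (-0.47 to 0.31), Lsm11 (-0.61 to 0.26), Slbp (-0.080 to 0.21) and Wdr33 (-0.037 to 0.12). In the difference it turned for Cpsf3 (-0.99 to 0.87), Cpsf4 (-0.077 to 0.34), Cpsf6 1428232_at (-0.22 to 0.43), Cstf2 1419645_at (-0.025 to 0.21) and Cstf3 (-0.30 to 0.44). Between the uninjected groups it turned for Cpsf1 (-0.34 to 0.36), Cpsf2 (-0.22 to 0.10), Cpsf3 (-1.10 to 0.62), Cpsf6 1439188_at (-0.29 to 0.13), Cstf2 1419644_at (-0.38 to 0.19), Papola 1444015_at (-0.83 to 0.0064), Papola 1427544_a_at (-0.17 to 0.28), Papola 1424217_at (-0.67 to 0.091) and Papolg 1427241_at (-0.20 to 0.26). None of these values had passed, and the cause was not tested. With 3 pools a group, signal near background limits the dim probe sets.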
